A study of Homo sapiens with 15 samples.

Results

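The subtelomeric megabases were taken as the first and the last 1 Mb of assembled sequence of chromosomes 1 to 22 and X in hg19, counted inward from the run of N at each end, and were cut into 10 kb bins. The rule used position alone and gave 4600 bins at 46 ends, out of 295121 bins of these 23 chromosomes. Of the 4600 bins, 4444 held at least 5000 called bases and were kept, and 4437 of these had a comparison class elsewhere. SSiNGLe-P1 maps free 3′-OH ends of DNA, including the breaks that nuclease P1 leaves in single-stranded DNA, base by base in crosslinked nuclei. The samples were wild-type K562, an established human chronic myeloid leukemia line whose chromosome copy numbers are altered, crosslinked with formaldehyde and lysed to nuclei. The nuclei got no P1, 0.01, 0.1, 1 or 10 U, with 3 biological replicates of each amount and 15 samples in all, and those that got no P1 are called untreated here. The largest amount visibly degraded high molecular weight DNA, so its breaks need not lie in single-stranded DNA.

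Human chromosomes end in telomeres, long tandem arrays of TTAGGG whose G-rich strand carries the 3′ end and protrudes as a single strand. The subtelomere inside them is a patchwork of segments duplicated between chromosome ends, GC-rich gene-dense sequence and minisatellites, which are tandem repeats of short units. Assembled telomere arrays are short because arrays of this kind are hard to assemble, and reads from duplicated segments have no unique place. On the short arms of chromosomes 13, 14, 15, 21 and 22 the first assembled base lies near the centromere, so 41 of the 46 ends lie next to a telomere.

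The results by distance turn on the outermost assembled bases, and the assembly does not end in telomere-type repeats at every end. An end without the unit TTAGGG or its reverse complement CCCTAA is shown by the first 60 assembled bases of chromosome 17 (chr17:1-60), read 5′ to 3′ on the plus strand of hg19.
17p: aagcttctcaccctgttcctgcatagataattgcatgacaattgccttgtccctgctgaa
The outermost 60 bases held 4 or more copies of the unit at 16 of the 41 telomere-side ends, 1 to 3 copies at 3 ends and none at 22 ends, as at 17p. At least 4 copies in tandem stood in 39 of the kept subtelomeric bins (0.878%), in 30 of the bins elsewhere (0.0107%) and in 0.0243% of all kept bins.

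The next sequences are deposited regions that the study's caller found in the most of its 12 lists of P1-treated samples. They are given as examples of repeats in recurrent regions, not as typical of them. Of the 64 merged regions in 3 or more lists, 8 held a tandem-repeat block as defined below. The chr7 and chr17 regions printed here were not among those 8. All are read 5′ to 3′ on the plus strand of hg19. In chr21:10085311-10085610 capitals mark bases equal to the base 1 repeat unit earlier, with a unit of 5 bases. In chr7:158387871-158388020 and chr17:165211-165480 capitals mark copies of the most frequent 10-base word, GGTGGAGGTG and TAGTCCCTGT.
chr21 region: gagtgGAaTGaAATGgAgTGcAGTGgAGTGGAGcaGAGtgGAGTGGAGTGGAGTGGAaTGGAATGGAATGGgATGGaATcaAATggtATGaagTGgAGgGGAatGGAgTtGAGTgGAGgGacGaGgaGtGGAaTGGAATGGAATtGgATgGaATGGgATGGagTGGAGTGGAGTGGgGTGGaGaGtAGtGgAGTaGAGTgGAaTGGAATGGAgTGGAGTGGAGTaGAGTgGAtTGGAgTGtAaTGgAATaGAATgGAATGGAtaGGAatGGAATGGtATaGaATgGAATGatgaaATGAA
chr7 region: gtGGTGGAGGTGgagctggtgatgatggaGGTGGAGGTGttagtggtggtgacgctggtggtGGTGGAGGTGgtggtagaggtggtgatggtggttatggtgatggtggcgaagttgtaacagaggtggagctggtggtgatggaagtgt
chr17 region: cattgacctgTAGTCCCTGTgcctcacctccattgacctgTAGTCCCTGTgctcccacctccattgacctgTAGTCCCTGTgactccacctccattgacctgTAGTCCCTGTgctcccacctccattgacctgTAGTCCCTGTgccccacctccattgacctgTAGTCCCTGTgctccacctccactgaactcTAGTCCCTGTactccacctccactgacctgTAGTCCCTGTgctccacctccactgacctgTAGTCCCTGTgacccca
GGTGGAGGTG stood, on either strand, in 0.273% of the 300-base windows of the subtelomeric bins and in 0.173% of those elsewhere, and TAGTCCCTGT in 0.0527% and 0.0428%.

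The last sequence is a region found in all 3 lists of 10 U and in no other list. It is printed with the 60 bases that follow it on the broken strand, here the plus strand, as chr6:170115841-170116010, and capitals mark runs of 10 or more A. It is shown because all its sites at 10 U lay on the strand with the A run.
chr6 region: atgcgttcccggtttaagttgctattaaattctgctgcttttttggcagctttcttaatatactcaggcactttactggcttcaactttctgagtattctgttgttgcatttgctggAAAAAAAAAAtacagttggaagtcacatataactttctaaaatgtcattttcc

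The site files held from 2057216 to 3881950 unique sites per sample, a site being a position and strand with at least 1 terminus, and from 2258825 to 4253274 termini. Untreated replicate 1 stood apart with the most sites. At 3 adjacent positions in the mitochondrial control region it had 60756 termini with read 2 on the plus strand, against 248443 and 268451 in the other untreated samples. Some results are given without replicate number 1 as well, but not those of the outermost 10 kb. The subtelomeric bins had 47.5% GC and the kept bins elsewhere 40.8%, and 84.6% of their 100-base words occurred once in the genome, against 97.1% elsewhere, with words of the X pseudoautosomal regions counted as not unique. Tandem-repeat blocks made up 2.03% of subtelomeric bases, 14.1 times the 0.144% found elsewhere. The 46 ends held 703 protein-coding genes, with a median of 11.5 and a range of 0 to 48 per end, and at telomere-side ends the outermost one lay at a median distance of 55.4 kb. Examples were OR4F5, an olfactory receptor gene 55.4 kb from the end of 1p, and DUX4, a homeobox gene of the macrosatellite array on 4q, 37.2 kb from its end.

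The first comparison asked whether the subtelomeric megabases held more or fewer sites than sequence of the same GC elsewhere. They held fewer in each of the 15 samples. The measure was the ratio of observed sites to those expected from bins elsewhere in the same 1% class of GC, called the level here. The level was 0.905, 0.868 and 0.877 in the untreated replicates and 0.900, 0.896 and 0.899 at 10 U, and its geometric mean over the 15 samples was 0.881, from 0.863 to 0.905. It was below 1 in 15 of 15 samples (exact two-sided sign-flip permutation p = 6.1e-05, the smallest that 15 samples allow). The subtelomeric bins nonetheless held 2.16 ± 0.0802% of all sites in untreated samples (SD, n = 3) on 1.57% of the called bases, as bins elsewhere of the same GC were denser than the average bin.

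The level hardly moved with P1. It was 0.883 ± 0.0195, 0.872 ± 0.00352, 0.872 ± 0.00767, 0.879 ± 0.00467 and 0.899 ± 0.00196 in the order untreated, 0.01, 0.1, 1 and 10 U (SD, n = 3 each), and the 10 U values lay inside the range of the untreated samples. The exact permutation test within replicate numbers of the spread over the 5 amounts gave p = 0.0829. Without replicate number 1 the factor of 10 U over untreated was 1.03 in place of 1.02 and the exact permutation p was 0.0417. With bins elsewhere matched on the share of unique words as well as on GC, the level was 0.963 ± 0.0204 in untreated samples and 0.972 ± 0.00415 at 10 U (exact permutation p = 0.158). A copy number that differs between an end and the rest of the genome, or a break in fewer cells, cannot be told apart from fewer breaks per molecule in these bulk samples.

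Distance from the end split the megabase. The outermost 100 kb of the telomere-side ends rose with P1 and the inner 900 kb did not pass the test. The level of the outermost 100 kb was 0.762, 0.707 and 0.719 in the untreated replicates, 0.769, 0.783 and 0.791 at 1 U, and 0.820, 0.819 and 0.834 at 10 U. Each 10 U value lay above each untreated one, while the 1 U values were each above the untreated sample of their own number. The means were 0.729 ± 0.0288, 0.728 ± 0.00835, 0.734 ± 0.0136, 0.781 ± 0.0111 and 0.824 ± 0.00843 from untreated to 10 U (SD, n = 3 each; exact permutation p = 0.00326). The inner 900 kb went from 0.901 ± 0.0145 to 0.908 ± 0.00120 (exact permutation p = 0.113). The ratio of outer to inner level was 0.810 ± 0.0188, 0.819 ± 0.00973, 0.823 ± 0.0164, 0.873 ± 0.00946 and 0.908 ± 0.00830 over the 5 amounts from untreated to 10 U, a factor of 1.12 that held in 3 of 3 replicates (exact permutation p = 0.00146). Over the 10 classes of 100 kb, the outermost class alone passed after Benjamini-Hochberg adjustment at equal GC (adjusted exact permutation p = 0.0326). Its adjusted exact permutation p was 0.0688 with unique words matched as well and 0.0806 in bins with at least 90% unique words without chromosome X, so the adjusted call was lost in both.

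**Figure D1:**
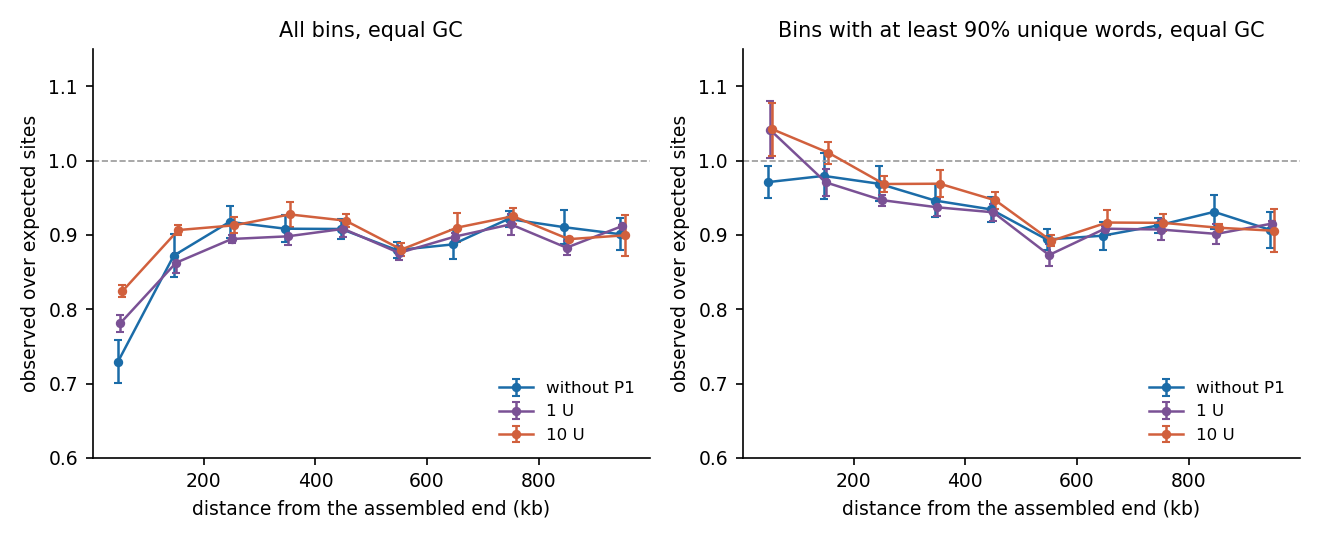
Level (observed over expected sites at equal GC) against distance from the assembled end in 100 kb classes at telomere-side ends, as mean and SD of 3 replicates for untreated samples, 1 U and 10 U, in all bins (left) and in bins with at least 90% unique words without chromosome X (right). The amounts part in the outermost class, from 0.729 untreated to 0.824 at 10 U, and the outermost is the one class on the left that passed the adjusted test.

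The low level of the outermost sequence went together with its share of unique words, which was 46.01% in the outermost 10 kb, 59.5% in the outermost 100 kb and 91.4% in the inner 900 kb. In bins with at least 90% unique words the outermost 100 kb had a level of 0.971 ± 0.0217 in untreated samples and 1.04 ± 0.0359 at 10 U, against 0.927 ± 0.0160 and 0.933 ± 0.00302 in the inner 900 kb (SD, n = 3 each). The increase in the ratio of outer to inner level was 1.07-fold there and stayed past the threshold. With the share of unique words matched, the outermost 100 kb went from 1.06 ± 0.0336 to 1.16 ± 0.0170 (exact permutation p = 0.00688, adjusted p = 0.0688 over the 10 classes).

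The outermost 10 kb bin of each end had the lowest level and the largest increase. Its level was 0.540, 0.409 and 0.440 in the untreated replicates, 0.556, 0.615 and 0.640 at 1 U, and 0.668, 0.671 and 0.628 at 10 U. Every value at 1 and 10 U lay above every untreated one, the 1 U and 10 U values overlapped, and untreated replicate 1 was the highest untreated sample. The means were 0.463 ± 0.0686 untreated and 0.656 ± 0.0240 at 10 U, a factor of 1.43 (exact permutation p = 0.00396, adjusted p = 0.0396 over the 10 bins of the outermost 100 kb). At equal GC and equal share of unique words it went from 0.821 ± 0.149 to 1.14 ± 0.0139, so that at 10 U it stood above the bins elsewhere that it was matched to (exact permutation p = 0.0145). These bins held few sites, from 176 to 423 per untreated sample and from 309 to 458 at 10 U. Their increase was not tested without replicate number 1.

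Bins with telomere-type repeats, at any distance from the end, also increased. Of these 39 bins, 20 were outermost 10 kb bins of telomere-side ends and 30 lay in the outermost 100 kb there. The subtelomeric bins that hold at least 4 tandem copies of the unit had a level of 0.953 ± 0.107, 0.907 ± 0.0300, 0.912 ± 0.0307, 1.13 ± 0.0845 and 1.24 ± 0.0488 from untreated to 10 U (SD, n = 3 each), a factor of 1.31 (exact permutation p = 0.00361). The call was lost without replicate number 1 (factor 1.36, exact permutation p = 0.0667), without number 2 (factor 1.31, exact permutation p = 0.0750) and with only sites of at least 2 termini (factor 1.19, exact permutation p = 0.811). Without these bins the ratio of outer to inner level still increased by a factor of 1.09, past the threshold.

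Inside the arrays themselves the increase was larger. The subtelomeric bins held 119 arrays of at least 4 copies, 6696 bases at 31 ends. They had 18, 12 and 12 sites in the untreated replicates, which is 4.66, 5.57 and 5.33 per 1000000 sites of the sample, and 4.82, 8.56 and 3.92 per 1000000 at 0.01 U. The values at 0.1 U were 5.06, 4.82 and 7.12 per 1000000, those at 1 U were 9.66, 11.7 and 18.2, and those at 10 U were 15.05, 13.4 and 15.9, from 39, 44 and 39 sites. All samples of 1 and 10 U lay above all samples of the smaller amounts. The ratio of the means of 10 U and untreated was 2.85 (exact permutation p = 0.00847). It was 2.79 for the 71 arrays in the outermost 10 kb (exact permutation p = 0.00903) and 2.97 for the 48 arrays further in (exact permutation p = 0.00799). The arrays further in had 15 sites untreated and 46 at 10 U, all replicates together. Much of this came from a single place on 12p. The region chr12:95421-95740, which spans several of these arrays, had 13 sites untreated and 35 at 10 U. Without replicate number 1 or 2 the ratio for all arrays was 2.70 or 3.10, and the exact permutation p was 0.100 or 0.0667.

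The broken strand of array sites was mostly the G-rich one. It was the TTAGGG strand at 33 of 42 sites (78.6%) in untreated samples and at 93 of 122 sites (76.2%) at 10 U, all replicates together. In arrays of the outermost 10 kb the share was 81.5% untreated and 82.9% at 10 U. In arrays further in it was 73.3% (11 of 15 sites) untreated and 65.2% (30 of 46) at 10 U. Reads from a break in the other strand of a terminal array run outward past the assembled sequence. The effect of this on the share was not tested. The array with the most sites over all files was 54 bases on 1q, chr1:249240399-249240452, with 46, and the next were an array of 78 bases on 12p, chr12:95466-95543, with 39 and one of 1098 bases on 5p, chr5:10484-11581, with 34.

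Across the megabases, sites in blocks of 100 bases with unequal G and C moved towards the G-richer strand at 10 U. Such a block was one in which the counts of G and C differed by at least 20. In the 3682 subtelomeric tandem-repeat blocks of this kind, 44.6, 45.3 and 45.4% of sites were broken on the G-richer strand in the untreated replicates, and 61.2, 63.9 and 63.8% at 10 U. The groups did not overlap. The means were 45.1 ± 0.427%, 46.6 ± 2.52%, 48.7 ± 4.92%, 50.7 ± 5.11% and 62.9 ± 1.54% over the 5 amounts from untreated to 10 U (SD, n = 3 each; exact permutation p = 0.0124), where 50.0% of the positions that could give a site lay on that strand. Without the 10 bins with the most of these sites at 10 U, which held 19.3% of them, the shares were 46.4 ± 0.775% and 62.8 ± 1.33%. Without replicate number 1 or 3 the difference was 18.5 or 17.6 percentage points in place of 17.9, and the exact permutation p was 0.0750 or 0.158.

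The same shift was measured outside tandem repeats and outside the subtelomeres. In the 35066 other subtelomeric blocks the share on the G-richer strand went from 45.96 ± 1.01% to 56.8 ± 0.635% (exact permutation p = 0.00111), and in tandem blocks elsewhere from 39.3 ± 1.37% to 55.1 ± 0.955% (exact permutation p = 0.000278). In other blocks elsewhere it went from 43.3 ± 1.27% to 51.4 ± 1.20% (exact permutation p = 0.00194). The difference between subtelomeric and other places grew with P1 for blocks outside tandem repeats, from 2.67 to 5.33 percentage points (exact permutation p = 0.00410). For tandem blocks the change in that difference did not pass (exact permutation p = 0.850). The density of sites in tandem blocks relative to other sequence increased 1.28-fold at 10 U in the subtelomeres, from 1.01 ± 0.176 to 1.29 ± 0.0564 (exact permutation p = 0.0269), and 1.32-fold elsewhere (exact permutation p = 0.0122). The subtelomeric call was lost without replicate number 2 (1.24-fold, exact permutation p = 0.108) or 3 (1.22-fold, exact permutation p = 0.183).

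**Figure D2:**
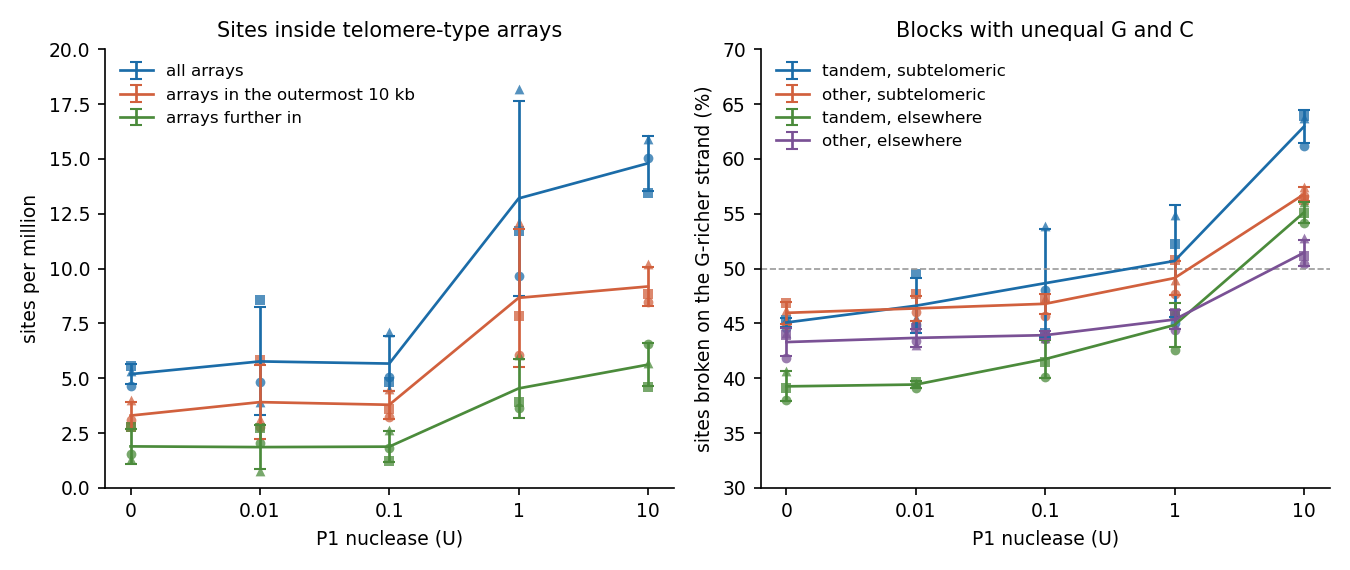
Left, sites per 1000000 inside subtelomeric arrays of at least 4 telomere-type units, for all arrays, those in the outermost 10 kb and those further in. Right, the percent of sites broken on the G-richer strand of 100-base blocks with unequal G and C. Circles, squares and triangles are replicates 1, 2 and 3, lines join means with SD bars, and the dashed line marks 50%. The arrays step up between 0.1 and 1 U, from 5.67 to 13.2 per 1000000, and the strand share steps up between 1 and 10 U, from 50.7 to 62.9% in subtelomeric tandem blocks.

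Strand was also read against the chromosome end. Over the telomere-side megabases, 49.8 ± 0.264% of sites in untreated samples and 50.4 ± 0.177% at 10 U lay on the strand whose 3′ end faces the telomere (SD, n = 3 each; exact permutation p = 0.155), with 50.2% of the possible positions there. In the outermost 100 kb the share was 48.1 ± 0.340%, 49.5 ± 0.777%, 49.8 ± 0.495%, 49.1 ± 0.522% and 50.4 ± 0.448% from untreated to 10 U (exact permutation p = 0.0114). It was higher than untreated in 3 of 3 replicates at each amount, and 51.0% of the possible positions lay on that strand.

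The ends differed far more among themselves than they did with P1. Over the 39 telomere-side ends of chromosomes 1 to 22, the untreated level had an SD of 0.241 between ends, against a median SD of 0.0294 between replicates of an end. Of these ends 28 lay below 1, with a median of 0.924. Set against bins of similar GC from 1 to 5 Mb inward on the same end, the SD between ends was 0.119, the median was 0.992 and 20 of 39 ends lay below 1.

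The highest untreated level was that of 18p, 1.63 ± 0.0413 (SD, n = 3), where the adjacent bins chr18:100001-110000 and chr18:110001-120000 held 20.3% of the sites. Both lie in ROCK1P1, annotated as a long non-coding RNA and a pseudogene by its name. Next were 7q with 1.61 ± 0.0277 and 6p with 1.27 ± 0.0436. Against their own inward 1 to 5 Mb the levels were 1.24 for 18p, 1.04 for 7q and 0.928 for 6p. The lowest were Xp, where none of the 15 samples had a site, Xq with 0.396 ± 0.0420 and 13p with 0.612 ± 0.0375. Subtelomeric bins of the pseudoautosomal regions, which X shares with Y, numbered 133, and 122 kept bins of these held no site in any file. The whole pseudoautosomal regions, which reach further inward, held 4 sites over all files. The authors left out reads with 2 places. At 10 U the level of an end was between 0.916 times (15p) and 1.12 times (Xq) its untreated level, and 32 of the 45 ends with sites were above 1.

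**Figure D3:**
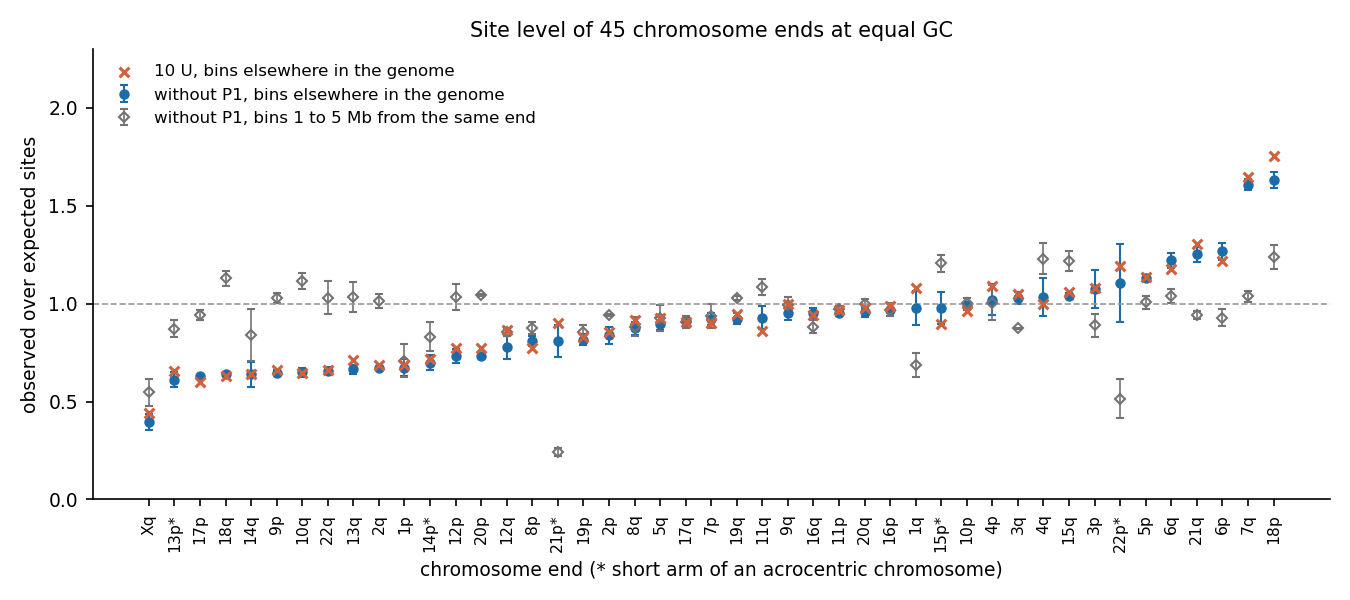
Level of the 45 chromosome ends with sites, in order of the untreated level. Filled circles are untreated means with SD over 3 replicates, crosses are means at 10 U, and open diamonds are untreated levels against bins 1 to 5 Mb from the same end. The order runs from Xq at 0.396 to 18p at 1.63, the 10 U crosses stay close to the circles, and the diamond of 7q lies at 1.04.

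Each end was then tested as a window among 2845 windows of 1 Mb with edgeR's quasi-likelihood test with the replicate number as a block. At 10 U 0.492% of all windows were called higher and 0.527% lower at FDR 0.05. Of the 45 ends tested 1 was called, 12q, with log2 fold change 0.17 (edgeR adjusted p = 0.0370). Its sites per 1000000 were 575.7, 485 and 489 untreated and 561, 607 and 590 at 10 U, so replicate 1 of 10 U lay below untreated replicate 1. DESeq2 and edgeR with a GC offset called no end, edgeR without replicate number 1 called 6 ends, and without number 2 or 3 it called none. At 0.01, 0.1 and 1 U edgeR called 0 windows of the genome. Its unadjusted p was below 0.05 at 109, 118 and 203 windows (3.83%, 4.15% and 7.14%). Of the 45 ends, 10, 6 and 9 were among these (22.2%, 13.3% and 20.0%). DESeq2 had 25, 35 and 79 windows at unadjusted p below 0.05 at these amounts and called none either. At 10 U the unadjusted edgeR p was below 0.05 at 12 of the 45 ends (26.7%), against 13.1% of all windows.

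Among 10 kb bins, 4078 of the 276620 tested were subtelomeric. At 10 U edgeR called 3 of them higher and 1 lower, where the share of all bins called was 0.0278% higher and 0.00723% lower, and 336 had an unadjusted p below 0.05 (8.24%, against 6.34% of all bins). At 1 U it called 1 higher and 0 lower, against 0.00108% and 0.000723% of all bins. At 0.01 and 0.1 U edgeR called 0 subtelomeric bins, with 214 and 196 at unadjusted p below 0.05 (5.25% and 4.81%, against 4.32% and 4.38% of all bins), and the share of all bins called higher at 0.1 U was 0.00325%. Without replicate number 1 edgeR called 2 subtelomeric bins at 10 U, and without number 2 or 3 it called none.

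The bin with the largest increase was the last 10 kb of chromosome 4, chr4:191034277-191044276. It held 20, 7 and 2 sites untreated and 31, 23 and 22 at 10 U, with log2 fold change 1.49 (edgeR adjusted p = 0.0253). Telomere-type arrays made up 318 of its bases, no annotated gene overlapped it, and 51.0% of its words were unique. Every 10 U value was above every untreated one.

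The bin chr9:140443432-140453431 overlaps exons of DPH7, MRPL41 and PNPLA7, which encode a factor of diphthamide synthesis, a mitochondrial ribosomal protein and a phospholipase. It had 27, 20 and 18 sites untreated and 41, 55 and 49 at 10 U, with log2 fold change 1.10 (edgeR adjusted p = 0.0148). Its densest 100 bases, inside chr9:140448511-140448640 and outside annotated genes, went from 2, 1 and 1 sites to 32, 34 and 38. Over the bin 44.6% of sites were broken on the plus strand in untreated samples and 88.3% at 10 U. The bin chr3:197362431-197372430, with 5230 of its bases in tandem-repeat blocks, went from 32, 8 and 17 sites to 37, 43 and 38, with log2 fold change 1.09 (edgeR adjusted p = 0.0429).

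The bin that fell at 10 U also rose at 1 U. It was chr1:560001-570000, a nuclear copy of mitochondrial sequence that carries pseudogenes of mitochondrial genes such as MTND1P23, MTCO1P12 and MTATP6P1. It shared 3538 words of 30 bases with the mitochondrial genome, and capitals mark the shared bases in its densest stretch, chr1:569878-569977 on the plus strand.
chr1 stretch: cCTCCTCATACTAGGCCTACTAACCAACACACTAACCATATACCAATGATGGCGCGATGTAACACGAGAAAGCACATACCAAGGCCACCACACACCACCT
The bin held 33, 79 and 70 sites untreated, 115, 121 and 94 at 1 U and 22, 40 and 25 at 10 U. The log2 fold change was 1.11 at 1 U (edgeR adjusted p = 3.27e-06) and -1.16 at 10 U (edgeR adjusted p = 0.000433). Mitochondrial counts are at hand for the 3 control-region positions given above, which lie outside the genes whose pseudogenes the bin carries. In the mitochondrial files their termini with read 2 on the plus strand were between 60756 and 268451 per untreated sample. They were between 47479 and 65872 at 1 U and between 2752 and 3204 at 10 U. The part of reads from mitochondrial DNA in this bin was not tested.

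The deposited regions of clustered sites, called by SICER in each P1-treated sample with its like-numbered untreated sample as control, were fewer in the subtelomeres than at equal GC elsewhere. The lists held 282, 279 and 195 subtelomeric regions at 0.01 U, 215, 235 and 210 at 0.1 U, 156, 294 and 287 at 1 U and 514, 1022 and 359 at 10 U. Observed over expected regions were 0.781 ± 0.0495, 0.706 ± 0.0897, 0.793 ± 0.0412 and 0.870 ± 0.0441 in this order (SD, n = 3 each), below 1 in 12 of 12 lists. Expected regions were matched on GC and not on the share of unique words, which was 84.6% in the subtelomeres and 97.1% elsewhere. How much of the lower number goes with that share was not tested. The spread over the 4 amounts gave an exact permutation p of 0.0677, and without replicate number 3 the p was 0.0417. The share of regions that touch a tandem-repeat block was 2.53 ± 1.75%, 1.96 ± 0.515%, 2.76 ± 0.931% and 5.81 ± 1.28% from 0.01 to 10 U (exact permutation p = 0.0417), and 0.787 ± 0.227% at 10 U elsewhere. Tandem-repeat blocks made up 2.03% of the bases in the subtelomeres and 0.144% elsewhere, so the subtelomeric and other shares have unlike baselines.

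Most regions were found once. Merged over lists they numbered 3729, of which 3519 stood in 1 list, 146 in 2 and 64 in 3 or more. A tandem-repeat block was present in 3.04% of those in 1 list and in 8 of the 64 (12.5%). The region in the most lists, 9, was chr21:10085311-10085930, a repeat of 5 bases with no annotated gene, which had 29, 13 and 14 sites untreated and 32, 29 and 10 at 10 U, so the groups overlapped.

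Of the 7 regions in 6 lists, those with the most sites in treated samples are given here. The array chr12:95421-95740, 35.4 kb from the end of 12p, had 4, 6 and 3 sites untreated, 8, 7 and 17 at 1 U and 12, 13 and 10 at 10 U. The values at 1 and 10 U all lay above the untreated ones. The region chr7:158387871-158388020, outside annotated genes, had 15, 4 and 5 sites untreated and 19, 21 and 17 at 10 U. The region chr17:165211-165480, in an intron of RPH3AL, a gene of vesicle exocytosis, had 9, 4 and 6 and then 17, 12 and 9. The region chr15:20546541-20546870 had 28, 3 and 7 and then 9, 17 and 9. No test was made of these regions, since the lists that chose them compared the same samples.

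A further set stood out for its strand. It was chosen after the values were seen, from the 18 merged regions found in all 3 lists of 10 U, and consists of the 13 found in no list of a smaller amount. They were 80 to 140 bases long, with a median of 90, and together had 22 sites in the untreated samples and 416 at 10 U. The lists that chose them compared the same samples, so this contrast follows from the choice and was not tested. The region chr9:140448511-140448640 had 2, 1 and 1 sites untreated and 32, 35 and 38 at 10 U. The region chr4:357451-357530, in an intron of the zinc finger gene ZNF141, had no site in the untreated samples and 6, 14 and 10 at 10 U. The region printed above, chr6:170115841-170115950, overlapping an exon of PHF10, a subunit of a chromatin remodeling complex, had 0, 2 and 2 and then 10, 8 and 6.

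The sites of these regions lay almost wholly on one strand. At least 88.5% of the sites at 10 U were broken on the same strand in each of the 13 regions, all of them in 7 regions, and that strand was the plus strand in 6. On that strand, 10 of the 13 were followed by a run of at least 10 A that began 7 to 40 bases after the region. Of all 150-base windows of the subtelomeres, 2.35% held such a run on a given strand, and 2.51% elsewhere. The filter of the authors against internal priming, which left out sites with T-rich sequence just upstream of read 2, looked at the 20 bases next to a site.

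**Figure D4:**
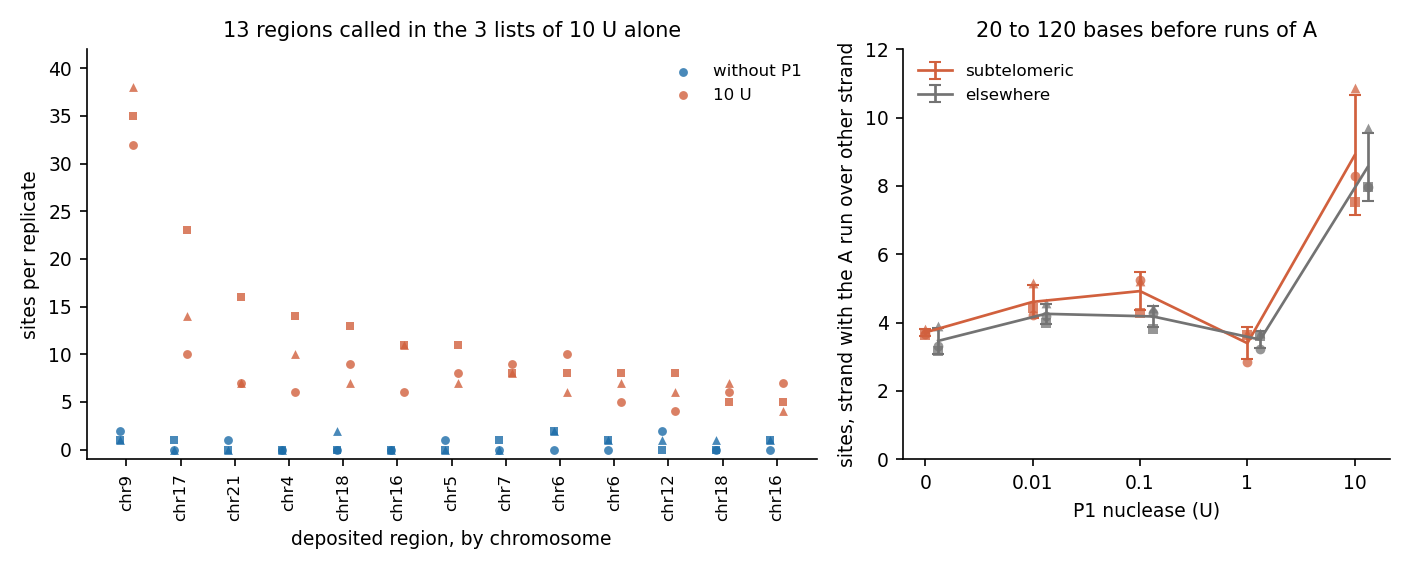
Left, sites per replicate in the 13 subtelomeric regions called in the 3 lists of 10 U alone, untreated and at 10 U, in order of their sites at 10 U. These regions were chosen by calls of 10 U against the same untreated samples, so the contrast on the left follows from the choice. Right, the ratio of sites on the strand that carries a run of at least 12 A to sites on the other strand, in the stretch 20 to 120 bases before the run, in the subtelomeres and elsewhere. Circles, squares and triangles are replicates 1, 2 and 3, and lines join means with SD bars. The ratio lies between 3.39 and 4.92 up to 1 U and at 8.90 at 10 U in the subtelomeres.

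All A runs of the subtelomeres were then read in the same way, as an analysis added after seeing the data. In the 20 to 120 bases before 9949 runs of at least 12 A, the ratio of sites on the strand with the run to sites on the other strand was 3.66, 3.65 and 3.82 in the untreated replicates. At 10 U it was 8.29, 7.53 and 10.9, above every other sample. The means were 3.71 ± 0.0967, 4.60 ± 0.481, 4.92 ± 0.560, 3.39 ± 0.466 and 8.90 ± 1.75 over the 5 amounts from untreated to 10 U (SD, n = 3 each; exact permutation p = 0.000417). Elsewhere it went from 3.46 ± 0.384 to 8.55 ± 0.992 (exact permutation p = 0.000972), and the ratio of the subtelomeric to the other value did not pass the test (exact permutation p = 0.139). These stretches held 1.95% of the subtelomeric sites in untreated samples and 2.61% at 10 U. Without the 200 bases before A runs, the increase in the ratio of outer to inner level was 1.13-fold and the G-strand shift of tandem blocks was 17.9 percentage points, both past the threshold.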

How the data were processed

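Groups and replicate numbers of the 15 samples came from the deposited titles. Per the labels and methods, the authors aligned read pairs to hg19 with BWA 0.7.12, kept unique alignments, left out termini with over 40% T in the 20 bases upstream of read 2, and deposited, for every position and strand with a terminus, its count. Removal of PCR duplicates is not given in the sources used here. Each row was counted once, as a unique site, and scaled to the sites of its file on chromosomes 1 to 22 and X (2057216 to 3881950 sites per file in all). Deposited region lists came from SICER 1.1, run by the authors on each treated sample with the like-numbered untreated sample as control (window 10, gap 30, E-value 0.01). Of the p-value, FDR and fold columns deposited with these regions, only the FDR was used, for a threshold of 1e-05 as an alternative. The deposited mitochondrial RPM values and lists of clustered sites were not used.

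Column 6 was taken as the strand of read 2, so the broken strand is its complement. The check used all sites of chromosomes 20 and 21, not the subtelomeric sites alone. With this reading 0% of them exceed the limit of the T filter, against 8.65 to 10.2% under the opposite reading. Expected sites came from kept bins elsewhere in the same 1% GC class (at least 20 bins), or the same 2% GC class and the same 10-point class of the percent of 100-base words that occur once. Bins of the X pseudoautosomal regions were given a share of 0 by rule, because the reference used here masks these regions on Y. A tandem block has at least 80 of 100 bases equal to the base 6 to 60 positions earlier. Genes came from GENCODE 44 mapped to hg19.

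The replicate number was a block because the methods set each treated sample beside its like-numbered untreated one. Spreads over amounts were tested by exact permutation within numbers (14400 arrangements for 5 amounts, smallest p 6.94e-05, and 576 for 4 amounts, smallest p 0.00174). A comparison of 3 samples with 3 of the same numbers cannot give a p under 0.25, so no single pair of amounts was tested this way. Windows with at least 10 and bins with at least 30 sites in all were tested with edgeR 4.0.16 (R 4.3.3, Benjamini-Hochberg over all windows or bins), and windows also with DESeq2 1.42.0. Factors are geometric means of ratios within numbers. Unless named adjusted, p-values carry no adjustment over the results, and they measure the spread between cultures of 1 cell line. On data simulated for 10 U, edgeR recovered 100 of 100 windows changed 2-fold among 2845 windows, with 10 false calls. Among 275113 bins it recovered 7 of 100 changed 2-fold and 64 of 100 changed 4-fold, with 7 false calls. The spread of the simulated counts was set in advance, not estimated from these data, and replicate numbers did not differ in them. The recovery holds for that setting. Exact tests used Python 3.11.15 with numpy 2.4.6.

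The members, lists and tests were chosen with earlier results of these data known. The ends, bins and regions named follow a rule: the 3 highest and lowest ends, those with the largest and smallest change, up to 10 called bins, and the 5 regions in the most lists with ties by treated sites. Alternatives were other GC classes, bins of the same chromosome or with 90% unique words, sites with at least 2 termini, all termini, no replicate block, omission of each replicate number, and other filters, scalings and ends. The analyses of tandem blocks, arrays, the G-richer strand and A runs, the comparison with bins 1 to 5 Mb inward and the omission of mitochondrial-like, dense, telomere-repeat or tandem sequence were added after seeing the data. The sequences of some named regions are not reported here.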

Additional observations from a re-analysis of the deposited data

How the results depend on the processing

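The level over all samples and the ratio of outer to inner level kept their direction and their side of the threshold under all 10 and 14 alternatives run, from 0.879 to 0.933 and from a factor of 1.07 to 1.14. The share of sites on the strand facing the telomere stayed short of the threshold in all 7. No result changed direction under any alternative, and the cause of the changes given here was not tested. The factor of 10 U over untreated for the level passed the test against bins 1 to 5 Mb from the same end (1.03, exact permutation p = 0.0147), and it ranged from 1.01 to 1.03 with a replicate number left out. With unique words matched the range was 1.00 to 1.02, and it passed without number 1. The telomere-repeat bins gave 1.26 to 1.36 with a number left out and 1.19 with sites of at least 2 termini, where the call was lost. Deposited regions gave a factor of 1.12 of 10 U over 0.01 U and passed without the replicate block (1.12, permutation p = 0.0449) and against bins of the same chromosome (1.10, exact permutation p = 0.0486), with 1.07 to 1.16 when a number was left out. Dropping the replicate block, which pairs samples by number, gave 3 called bins at 10 U in place of 4. Apart from the deposited regions, it changed no other call. Over omissions of a number, tandem blocks gave factors of 1.22 to 1.38, arrays 2.70 to 3.10, and the G-richer strand 17.5 to 18.5 percentage points. The GC offset and DESeq2 called 0 ends at 10 U in place of 1, and omissions 0 to 6. For 10 kb bins, omissions gave 0 to 1 calls at 0.1 U, 0 to 2 at 1 U and 0 to 2 at 10 U, and no filter gave 2 at 1 U and 5 at 10 U. Over all alternatives, 12 counts moved by a larger factor than these 2 at 10 U, 6 values passed the threshold and 9 no longer did. Depth limits single bins, at least under the spread set in the simulation: the simulated 2-fold changes of 10 kb bins were mostly missed.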

Other observations

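The subtelomeric bins held 13 bins with over 5 times the sites expected from equal GC in the untreated samples. The densest was chr18:100001-110000, with 17.8 times the expected sites, and its neighbour chr18:110001-120000 had 13.5 times. In the former, 33 of the 100 blocks of 100 bases held at least 10 sites over all files, and the densest block held 434 against a median of 2. The mean number of sites per sample in that bin was 224 in untreated samples and 267 at 10 U. Of the 13 bins, 8 lay on the short arms of chromosomes 14, 15, 21 and 22, and chr4:50001-60000 and chr4:40001-50000, with 6.95 and 5.88 times the expected sites, lay within 50 kb of the assembled end of 4p.

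Of the kept subtelomeric bins, 159 held no site in any file, and 122 of these were pseudoautosomal.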
